A study of Mus musculus with 19 samples.

Results

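The resting transcriptome of CD11b+ brain cells was described from the 4 libraries of wildtype, vehicle-treated mice, out of 19 libraries in the series. They are all the libraries with the labels wildtype and PBS, and no measured value entered that rule. Nothing in what follows is a contrast with another group. Each library came from 1 male wildtype littermate of the *PARK7*/DJ-1 knockout line, which had been backcrossed to C57BL/6NCrl. The mice were 3 to 4 months old and had received saline intraperitoneally 6 h before perfusion. The other 15 libraries came from knockout mice or from mice given 4 μg/g LPS and were used here only to check the targeted gene.

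After removal of the olfactory bulb and cerebellum, the brains were dissociated with enzymes and cells binding beads against CD11b, the integrin alpha-M encoded by *Itgam*, were held back on a magnetic column. The sequenced RNA was therefore that of a bead-enriched suspension rather than of sorted single cells. CD11b is carried by microglia, by the macrophages at the borders of the brain, and by monocytes, neutrophils and natural killer cells. Total RNA was depleted of ribosomal RNA before stranded libraries were made, so transcripts without a poly(A) tail were counted as well.

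Microglia are the macrophages of the brain parenchyma. They are seeded from the embryonic yolk sac, are maintained by signalling through the CSF1 receptor and TGF-β, and survey the tissue with motile processes guided by purinergic receptors. Their lysosomes degrade engulfed synapses, myelin and dying cells, and they are the main source of the complement component C1q in the brain.

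Totals were 19314132, 15464612, 14832170 and 14558136 counts in libraries 1 to 4. Levels are given as CPM, counts scaled to library size with TMM factors, with ± for the SD over 4 libraries (n = 4) throughout, and 3 counts corresponded to 0.165 to 0.206 CPM. This limit covers counting error only. A gene was taken as detected at 1 CPM or more in all 4 libraries. *Park7*, the gene disrupted in the knockout line, stood at 26.6, 23.5, 22.1 and 21.4 CPM in the 4 libraries. On library totals it ranged from 21.7 to 25.1 CPM here, against at most 4.99 CPM in the 10 knockout libraries, so each library used here lay above all of those. The Y-linked genes *Ddx3y*, *Uty*, *Eif2s3y* and *Kdm5d* were all detected, with a summed level of 238 ± 20.4 CPM.

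The libraries did not resemble each other equally. Over the 14250 detected genes, Spearman's rho across genes was highest between libraries 1 and 3 (0.986) and lowest between 1 and 2 (0.927), and genes are not independent replicates. The percentage of detected genes that differed over 2-fold was 2.18% for libraries 1 and 3 and 14.9% for 1 and 2. Chi-square per degree of freedom was 8.20 or more for every pair, so no library was a second deposit of another. This checks for copies alone, since separate mice differ by more than counting error. The markers of other brain cells moved with this split, as given with their values further on. The value in each library is therefore given for many, though not all, of the named genes that moved with them. The ranking and the spread are also given for libraries 1 and 3 alone.

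The most abundant transcript was *Csf1r*, the receptor for CSF1 and IL-34 on which microglial survival depends. It stood at 12718, 8338, 11256 and 8293 CPM in libraries 1 to 4, a mean of 10151 ± 2202 CPM (SD, n = 4), or about 1 count in 100. Also among the highest were, in this order, the nuclear long noncoding RNA *Malat1* (7811 ± 1339 CPM), the protease inhibitor cystatin C, *Cst3* (7329 ± 1600.0), beta-actin, *Actb* (6545 ± 981), transthyretin, *Ttr* (6426 ± 4919.9), and the fractalkine receptor *Cx3cr1* (5842 ± 1222). Neighbours in this order from *Malat1* to *Cx3cr1* lay within 1 SD of each other. On GRCm39 these genes lie at chr19:5845717-5853602 (*Malat1*), chr2:148713635-148717887 (*Cst3*), chr5:142888870-142892509 (*Actb*) and chr9:119877749-119898945 (*Cx3cr1*).

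Places 8 to 20 were held mostly by genes of the endosomal and lysosomal system and of the cell surface. *Serinc3*, a membrane protein of the serine incorporator family, stood at 4147 ± 712 CPM. Cathepsin S, *Ctss*, followed at 3579 ± 1084 CPM, prosaposin, *Psap*, the precursor of the sphingolipid activator proteins, at 3133 ± 289, and the endocytic receptor *Lrp1* at 3075 ± 389. *Laptm5*, a lysosomal membrane protein of immune cells (2898 ± 597), cathepsin D, *Ctsd* (2836 ± 366), and *Kctd12*, an auxiliary subunit of GABA-B receptors (2830.2 ± 651), came next. The remaining places went to the TGF-β receptor *Tgfbr1* (2819 ± 541), *Sirpa*, the receptor for CD47 (2786 ± 535), the immune checkpoint protein VISTA, *Vsir* (2741 ± 374), *Enpp2*, which makes lysophosphatidic acid (2666 ± 2009), the pore-forming protein *Mpeg1* (2661 ± 776), and the small GTPase *Rhob* (2623 ± 395).

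**Figure D1:**
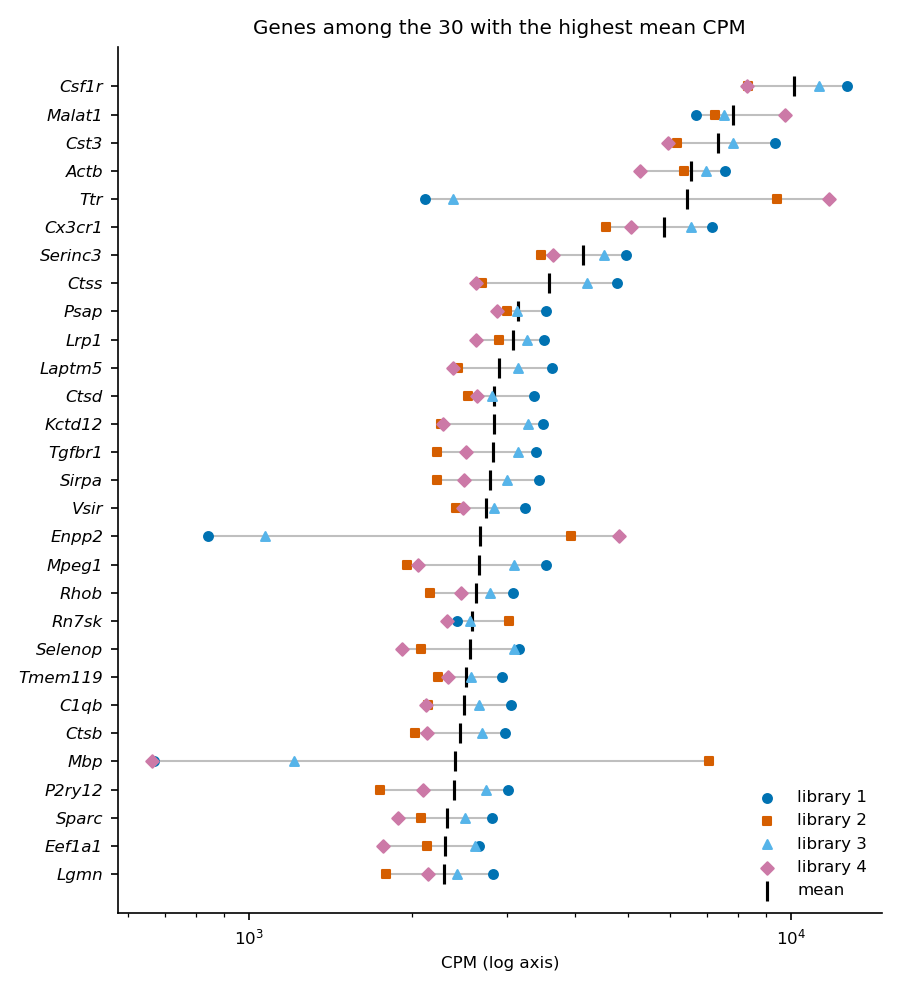
CPM in each of the 4 libraries for 29 of the 30 genes with the highest mean (log axis), with symbols for libraries and a black bar for the mean. Most genes were highest in library 1 and within a factor of 2 across libraries, while *Ttr* and *Enpp2* were high in libraries 2 and 4 and *Mbp* was high in library 2, at 7077 CPM.

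3 of these genes did not hold their place across libraries. *Ttr*, the thyroxine carrier made by the choroid plexus, stood at 2111, 9452, 2379 and 11761 CPM. It was the most abundant gene of libraries 2 and 4 and held places 34 and 31 in libraries 1 and 3. *Enpp2*, also a choroid plexus transcript, stood at 842, 3926, 1074 and 4824 CPM, with places 127, 9, 79 and 8. Myelin basic protein, *Mbp*, stood at 668, 7077, 1214 and 664 CPM and was high in library 2 only. Ranked on libraries 1 and 3 alone, *Ttr* fell to place 32 and *Enpp2* to place 100, 18 of the 20 highest genes stayed among the 20 highest, and 98 of the 100 highest among the 100 highest.

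The largest share of the counts lay on genes between 100 and 1000 CPM. The 100 highest genes of each library took 20.5 ± 1.05% of its counts and the 10 highest took 6.56 ± 0.235%. 78 genes reached 1000 CPM and held 18.3% of all counts, 2247 genes lay between 100 and 1000 CPM and held 50.9%, and 7333 genes between 10 and 100 CPM held 28.1%. Of the 56980 genes in the table, 14250 (25.0%) were detected, and of 21631 protein-coding genes 12376 (57.2%). The median over all protein-coding genes was 5.30 CPM, and over the detected ones 28.6 CPM, which is the scale against which the lists that follow can be read. 85 genes were among the 100 highest of every library.

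Counts grow with transcript length, so an order of levels per length needs TPM, which divides counts by the length of the union of a gene's exons and scales each library to the same sum. An order given in CPM is an order of counts. By length the highest protein-coding gene was *Cst3* (21634 ± 3786 TPM), then *Ttr* (18509 ± 14668), *Actb* (11972 ± 1300.3), *Csf1r* (7362 ± 1300.2) and *Cx3cr1* (6703 ± 1166), and lower stood thymosin beta-4, *Tmsb4x* (6489.8 ± 1223), which sequesters actin monomers. The interval of 1 SD of *Ttr* took in every level from *Actb* to *Tmsb4x*. Next were *mt-Co1* (6016 ± 2492 TPM), part of which has a copy in the nuclear genome that makes its level uncertain, *Rhob* (5977 ± 718), *Ctsd* (5487 ± 498), *C1qa* (5454 ± 493) and *Psap* (5256 ± 257), none of them separated from its neighbour by more than 1 SD. *C1qc* (4255 ± 409 TPM), *Tmem119* (4123 ± 354), a membrane protein used as a microglial marker, and the ADP receptor *P2ry12* (3993 ± 828) followed.

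The rankings by CPM and TPM shared 61 of their 100 highest protein-coding genes. The median exon length was 6589 bases among the 100 highest by CPM and 3592 bases among the 100 highest by TPM. Short transcripts rose in the ranking by length. The adaptor *Tyrobp*, or DAP12, which signals for TREM2, moved from place 522 by CPM (303 ± 64.3) to place 29 among coding genes by TPM (2369.8 ± 416). *Lrp1*, whose transcript is long, moved from place 11 by CPM to place 101 among coding genes by TPM (803 ± 67.6).

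**Figure D2:**
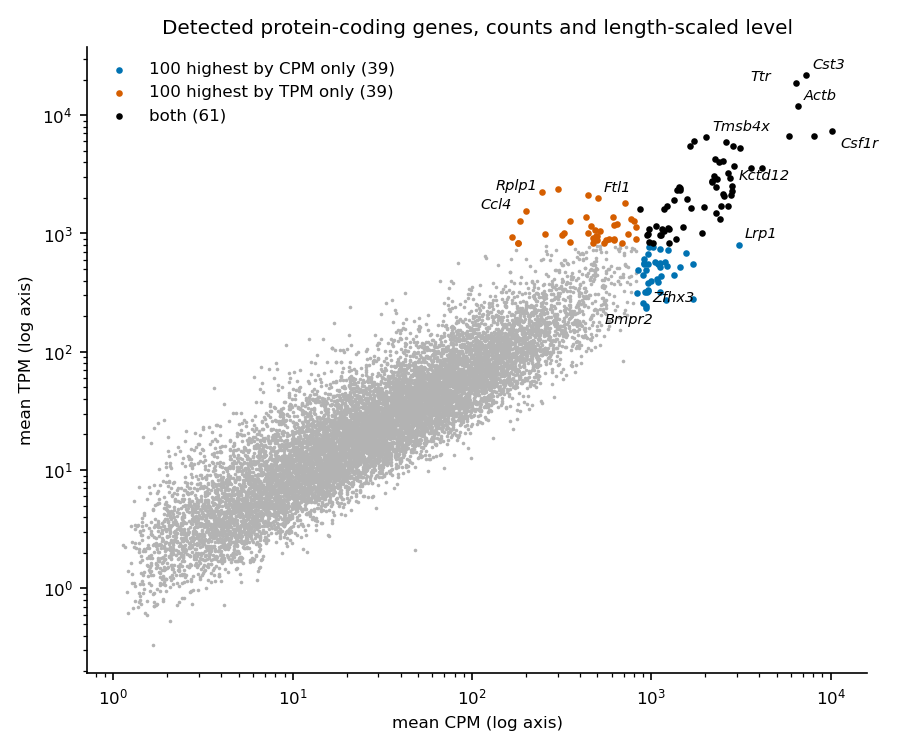
Mean CPM against mean TPM of the 12376 detected protein-coding genes (both axes log). Black points are the 61 genes among the 100 highest by both measures, blue and orange points the 39 genes each that were among the 100 highest by 1 measure alone, such as *Lrp1* and *Ccl4*.

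Protein-coding genes took 97.1 ± 0.315% of the counts and long noncoding RNAs 1.75 ± 0.257%. Of 11140 long noncoding genes 975 were detected. *Malat1*, at 6699.7, 7265, 7529.7 and 9751 CPM, carried more counts than any other of them, and the next was the uncharacterised *Gm2629* at 280.4 ± 44.1 CPM. *E230029C05Rik* (188 ± 20.6), *Oip5os1*, or Cyrano (173 ± 25.6), *Gm33989* (150.4 ± 22.83), *Norad*, which binds Pumilio proteins (150.1 ± 25.8), and *AU020206* (149.8 ± 40.9) stood close together. *Neat1*, the scaffold of paraspeckles (135.1 ± 41.6), the imprinted *Kcnq1ot1* (129 ± 25.6), and *Mir142hg*, the host of a microRNA of blood cells (94.1 ± 9.65), completed the 10 highest. *Malat1*, *Neat1* and *Kcnq1ot1* were each highest in library 4 and lowest in library 1, while the rest of the 10 were highest in other libraries. Of protein-coding genes with a mean of 10 CPM or more, 11.03% were highest in library 4 and 21.9% were lowest in library 1.

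Among the small structural RNAs *Rn7sk*, the 7SK RNA that holds P-TEFb inactive, led with 2421, 3023, 2560.3 and 2319 CPM, and its length-scaled level of 41896 ± 5367 TPM exceeded that of every other gene. The 18S ribosomal copy *Rn18s-rs5*, of a kind of RNA that the depletion removes, stood at 1216, 377, 1553 and 219 CPM and was over 3 times higher in libraries 1 and 3 than in 2 and 4. *Scarna2* stood at 91.4 ± 11.94 CPM and *Mir6236* at 12.2, 102, 9.39 and 11.8 CPM. The other small RNAs among the 10 highest (*Gm22009*, *Snord17*, *Gm22513*, *Gm22442*, *Gm55352* and *Gm22748*) lay between 6.77 and 27.7 CPM.

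Mitochondrially encoded genes took 0.184%, 0.412%, 0.201% and 0.245% of the counts in libraries 1 to 4. Of the 13 mitochondrial protein genes 7 reached a mean of 10 CPM, led by the cytochrome oxidase subunit *mt-Co1* (1723 ± 692 CPM), cytochrome b, *mt-Cytb* (445 ± 163), and *mt-Nd1* (166 ± 81.5). *mt-Co2*, *mt-Atp8*, *mt-Atp6*, *mt-Nd3* and *mt-Nd4l* had 0 counts in all 4 libraries, and *mt-Co3* had 2, 3, 7 and 0. These 6 genes have a copy in the nuclear genome on GRCm39 chr1:24650616-24655265. Between 98.9% and 100% of their 75-base windows occur there exactly, against 27.5% for *mt-Co1*, 61.5% for *mt-Nd4* (30.1 ± 14.7 CPM) and 0% for *mt-Cytb*, *mt-Nd1*, *mt-Nd2*, *mt-Nd5* and *mt-Nd6*. The 5 pseudogenes annotated in that nuclear stretch had at most 16 counts in any library. What this copy took from the counts was not tested, so the values of these 6 genes cannot be read as levels of expression, and those of *mt-Nd4* and *mt-Co1* are uncertain.

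The identity of the cells was checked against 33 microglial markers. All 33 were detected, 32 of them above 100 CPM, and together they took 86891, 57051, 76967 and 60105 CPM in libraries 1 to 4, or 8.69%, 5.71%, 7.70% and 6.01% of the scaled counts. Their median was 1430.2 CPM, against 28.6 CPM over detected protein-coding genes. Besides the genes already named, *Sparc*, a matrix protein (2321 ± 418 CPM), *Fcrl2*, formerly named Fcrls (2176 ± 454), the transporter *Slco2b1* (1955 ± 279.7), and *Selplg*, the ligand of P-selectin (1574 ± 203), were the most abundant. The lowest of the 33, in CPM and in TPM, was *Aif1*, which encodes IBA1 (94.4 ± 23.1 CPM and 119 ± 24.8 TPM), and *Ltc4s*, the leukotriene C4 synthase, stood at 119.7 ± 12.1 CPM. *Itgam* itself, the target of the beads, stood at 424, 266, 365 and 253 CPM.

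All 33 markers were highest in library 1, and 24 were lowest in library 2 and 9 in library 4. Over all 9368 protein-coding genes with a mean of 10 CPM or more, 46.2%, 28.1%, 14.7% and 11.03% were highest in libraries 1 to 4, and 21.9%, 37.1%, 11.7% and 29.2% were lowest there. The median ratio of library 2 to library 1 was 0.656, with a range from 0.564 to 0.799. The median CV of a marker was 20.3% in CPM, but 5.92% once each was expressed as its share of the summed list. In bulk libraries fewer cells of a type and less RNA per cell cannot be told apart.

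Border-associated macrophages were represented by 11 of 11 detected markers, with a summed level of 2784, 2356, 2690.2 and 2537 CPM that varied by 7.22%. *Stab1*, a scavenger receptor that microglia also express, made up 74.1% of it. Without it the highest were the mannose receptor *Mrc1* (331 ± 39.3 CPM), the coagulation factor *F13a1* (143 ± 9.56), the haemoglobin receptor *Cd163* (64.6 ± 6.89) and *Lyve1* (30.1 ± 2.84), all present in every library. The meningeal lectin *Cd209f* (13.04 ± 1.74) and the chemokine *Pf4* (16.2 ± 1.36) were low.

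Markers of blood cells were uneven in level. Of 14 T and NK cell markers only *Cd4*, which myeloid cells can also express, was detected (8.99 ± 1.64 CPM), while *Cd3e*, *Cd3d*, *Cd3g*, *Cd8a* and *Ncr1* had at most 6 counts in any library. Of 7 B cell markers 3 were detected. *Ighm* stood at 303, 186, 265 and 161 CPM and made up 88.6% of the sum, although *Cd79a* and *Ms4a1* had at most 3 counts in any library. The other member at 10 CPM or more went the other way, with a ratio of library 2 to library 1 of 4.25, against 0.614 for *Ighm*. Neutrophil markers summed to 155, 82.3, 144 and 81.0 CPM, led by the granule protein *Ngp* (29.6 ± 9.76) and lactoferrin, *Ltf* (22.6 ± 10.03), and were higher in libraries 1 and 3. The monocyte chemokine receptor *Ccr2* stood at 19.2 ± 3.77 CPM and *Ly6c2* at 1.38 ± 0.835. The members of the monocyte list with a mean above 100 CPM were *Nr4a1* (139, 106, 170.2 and 122 CPM), which is also an immediate early gene, *Fn1* (102, 310.4, 133 and 221) and *Ace* (52.6, 255, 59.5 and 266). The order over the libraries was that of *Ttr* for *Ace* and that of the endothelial markers for *Fn1*. Of the haemoglobin genes *Hbb-bs* had 0.274, 0.892, 0.0685 and 0 CPM.

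Markers of cells without CD11b differed between libraries. The lists of choroid plexus, oligodendrocytes, astrocytes and endothelium had higher sums on average than every list of blood cells, while those of neurons and oligodendrocyte precursors lay below the monocyte and B cell lists. The choroid plexus sum was 92.6% *Ttr*. The lists differ in size and in the levels of their members, so this order is not one of cell numbers. Oligodendrocyte markers summed to 2574, 11804, 3181 and 2379 CPM. Besides *Mbp*, the myelin protein *Mobp* stood at 126, 1501, 239 and 159 CPM, in library 2 far above the rest. Transferrin, *Trf*, did not follow it, at 1391, 1039, 1224 and 948 CPM. Astrocyte markers summed to 998, 4660.1, 1593 and 1584 CPM, led by the glutamate transporters *Slc1a2* (434, 2445, 816 and 601) and *Slc1a3* (268, 594, 316 and 272), and all 10 were highest in library 2 and lowest in library 1.

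Ependymal and choroid plexus markers summed to 2259, 10266, 2565 and 12669 CPM and so were high in libraries 2 and 4. *Ttr* made up 92.6% of the list. Klotho, *Kl*, stood at 87.3, 473, 106 and 529 CPM and *Folr1* at 11.2, 59.2, 13.98 and 71.0, and the median CV of a member fell from 78.8% in CPM to 8.33% as a share of the list. Endothelial markers summed to 452, 1432, 634.2 and 986 CPM, with *Flt1* and *Cldn5* at 306 ± 177 and 73.5 ± 32.5 CPM. *Flt1* stood at 139, 543, 210 and 333 CPM in the 4 libraries, and *Cldn5* had a mean of 46.4 CPM over libraries 1 and 3 alone. Mural and fibroblast markers summed to 189, 709, 278 and 381 CPM, led by *Rgs5* (186 ± 104, and 122 over libraries 1 and 3 alone). Oligodendrocyte precursor markers summed to 51.4, 209, 88.6 and 112 CPM. Neuronal markers summed to 39.7, 206, 154 and 196 CPM, of which the noncoding *Meg3* (19.7, 91.4, 88.3 and 131) made up 55.5%.

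**Figure D3:**
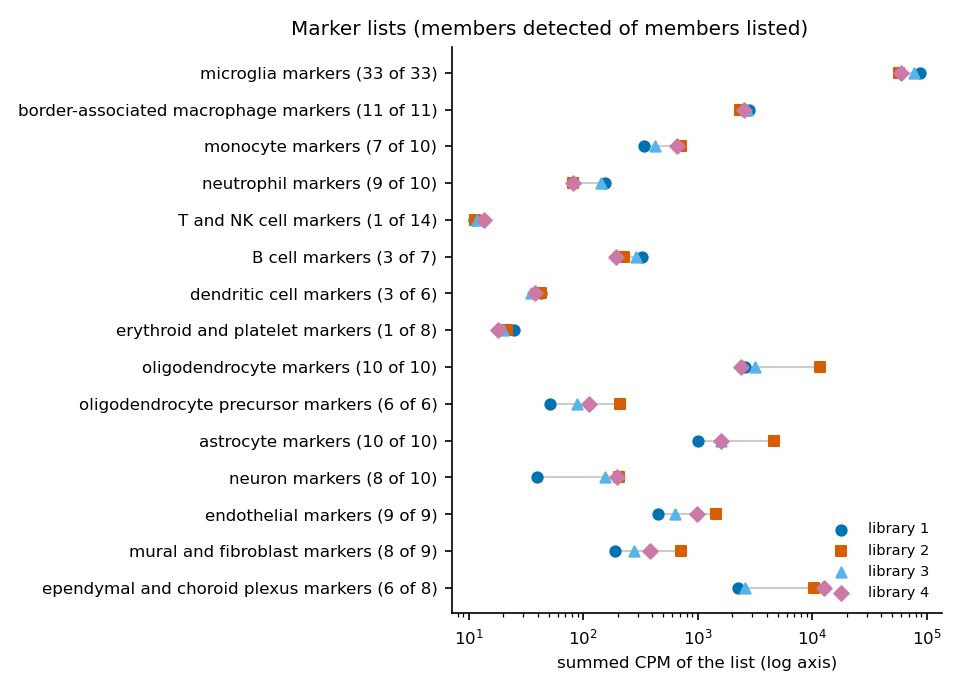
Summed CPM of each marker list in the 4 libraries (log axis), with the number of members detected and listed in brackets. The microglial sum exceeded that of every other list in each library, and the lists of oligodendrocytes, astrocytes, vessels and choroid plexus were each lowest or next to lowest in library 1.

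The CSF1 receptor and TREM2 pathways were detected in full, 33 of 33 genes. Of the ligands of CSF1R, *Csf1* stood at 50.96, 51.04, 52.9 and 55.4 CPM, with a CV of 3.98%, and *Il34*, which neurons make, at 1.21, 8.79, 2.40 and 5.18, lowest in library 1. Of the receptors *Trem2*, the lipid receptor that pairs with *Tyrobp*, stood at 825, 509, 715 and 599 CPM. Downstream, the phosphatase SHIP1, *Inpp5d* (1256 ± 168 CPM), the kinases *Lyn* (670.0 ± 113) and *Syk* (308 ± 49.5), the ubiquitin ligase *Cbl* (558 ± 90.8), the PI3 kinase subunits *Pik3cg* (547 ± 101) and *Pik3cd* (305 ± 45.6), and the phospholipase *Plcg2* (269 ± 37.4) were among the 23 of the 33 above 100 CPM.

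All 27 genes of the TGF-β pathway were detected. Both receptor chains were abundant, *Tgfbr1* at 3391, 2226, 3145 and 2513 CPM and *Tgfbr2* at 1133, 761, 983 and 752. Of the ligands *Tgfb1* stood at 301 ± 40.5 CPM, *Tgfb2* at 13.8, 67.0, 17.3 and 51.5 and *Tgfb3* at 2.63, 18.9, 4.18 and 5.76, the latter pair highest in library 2. *Nrros*, which holds latent TGF-β1 on microglia, stood at 221 ± 9.25 CPM, and of the integrin chains that release the ligand *Itgav* stood at 469 ± 72.6, *Itgb5* at 1499 ± 239 and *Itgb8* at 27.3, 128, 39.8 and 91.9. Among the signal transducers *Smad3* exceeded *Smad2* per length (232 ± 28.9 against 44.3 ± 3.71 TPM). The feedback inhibitors *Ski* (529 ± 57.1 TPM) and *Smad7* (343 ± 31.8) were higher than *Smad3*, while *Skil* (284 ± 33.0) overlapped it within 1 SD.

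Of 75 G protein-coupled receptors 61 were detected, with a summed level of 16796 ± 3019 CPM. 4 of them held most of it. *Cx3cr1*, the receptor for the neuronal chemokine fractalkine, stood at 7165, 4571, 6561 and 5071 CPM. The ADP receptors *P2ry12* and *P2ry13* stood at 3006, 1749, 2738 and 2095 and 1742, 1100.2, 1567 and 1346 CPM, and *Gpr34*, a receptor for lysophosphatidylserine, at 1762, 1021, 1633 and 1304. By length the order was *Cx3cr1* (6703 TPM), *P2ry12* (3993), *Gpr34* (2492) and *P2ry13* (2330.4), the latter pair within 1 SD of each other.

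The other receptors were lower by a wide step. Among them were *Adgre1*, which encodes F4/80 (828 ± 176 TPM), *Adgrg1*, or GPR56 (559.8 ± 61.7), *Cmklr1*, the chemerin receptor (410.2 ± 24.2), the anaphylatoxin receptor *C3ar1* (408 ± 69.8), and *Ptafr*, the receptor for platelet-activating factor (365 ± 74.6). The adrenoceptor *Adrb1* stood at 93.7 ± 23.1 CPM. The chemokine receptors *Ccr1* (20.6 ± 7.02 CPM) and *Cxcr4* (12.5 ± 2.21) were low, and *Htr2b* had 0 counts in all 4 libraries. *Lpar1* (8.67, 64.0, 13.7 and 8.61 CPM) and *Gprc5b* (26.0, 142, 39.1 and 58.7) were detected but highest in library 2, with the oligodendrocyte and astrocyte markers.

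Cytokine and growth factor receptors were detected in 52 of 58 cases. After *Csf1r* and *Tgfbr1* the highest by length were the interferon-gamma receptor *Ifngr1* (1211 ± 106 TPM), the IL-10 receptor *Il10ra* (768 ± 189), *Tgfbr2* (551.0 ± 89.1), the G-CSF receptor *Csf3r* (513 ± 64.0), the TNF receptor *Tnfrsf1b* (497 ± 73.2), *Il6ra* (393 ± 42.9), *Tnfrsf21* (386 ± 52.0) and the other TNF receptor, *Tnfrsf1a* (377 ± 47.8). The chains of the type I interferon receptor stood at 161 ± 8.32 CPM (*Ifnar1*) and 99.3 ± 17.5 CPM (*Ifnar2*). The IL-1 receptor *Il1r1* (7.46, 21.7, 9.39 and 19.3 CPM) was low and highest in library 2.

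Of 67 receptors for microbial or dying material 63 were detected. The highest by length after *Tyrobp* were *Sirpa* (2128 ± 331 TPM), *Siglech* (1155 ± 246), the phosphatidylserine-dependent kinase *Mertk* (1084 ± 86.0), *Stab1* (1001 ± 49.2), *Lrp1*, *Trem2* (715 ± 124), the LPS co-receptor *Cd14* (614 ± 86.8) and *Cd33* (550.3 ± 103). *Mertk* exceeded *Axl*, of the same family, by far, at 1084 ± 86.0 against 45.5 ± 8.44 TPM. Among Toll-like receptors the endosomal *Tlr7* (489.8 ± 10.9 TPM) and *Tlr13* (382 ± 39.5), which sense RNA, were higher than *Tlr9* (238 ± 21.9), *Tlr4* (130.4 ± 23.2), *Tlr2* (108.03 ± 24.3) and *Tlr3* (105 ± 12.4). *Ly96*, the partner of TLR4, stood at 8.78, 7.14, 7.54 and 7.83 CPM, and *Marco* had 0 counts.

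Of the Fc receptors *Fcrl2* (2715 ± 473 TPM), the activating *Fcgr3* (1333 ± 187) and the shared gamma chain *Fcer1g* (836 ± 137) led, ahead of *Fcgr1* (333 ± 63.2) and the inhibitory *Fcgr2b* (222 ± 37.6). *Fcgr4* was lower, at 37.8 ± 7.54 TPM. Among adhesion molecules the tetraspanins *Cd81* (1337 ± 157 CPM), *Cd53* (869 ± 213) and *Cd9* (463 ± 125), the ectonucleotidase CD39, *Entpd1* (1019 ± 120.0), which degrades ATP, and *Itga6* (702 ± 128) stood beside *Selplg* and *Itgb5*. *Itgb2*, the partner chain of CD11b, stood at 511, 344, 441 and 353 CPM.

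**Figure D4:**
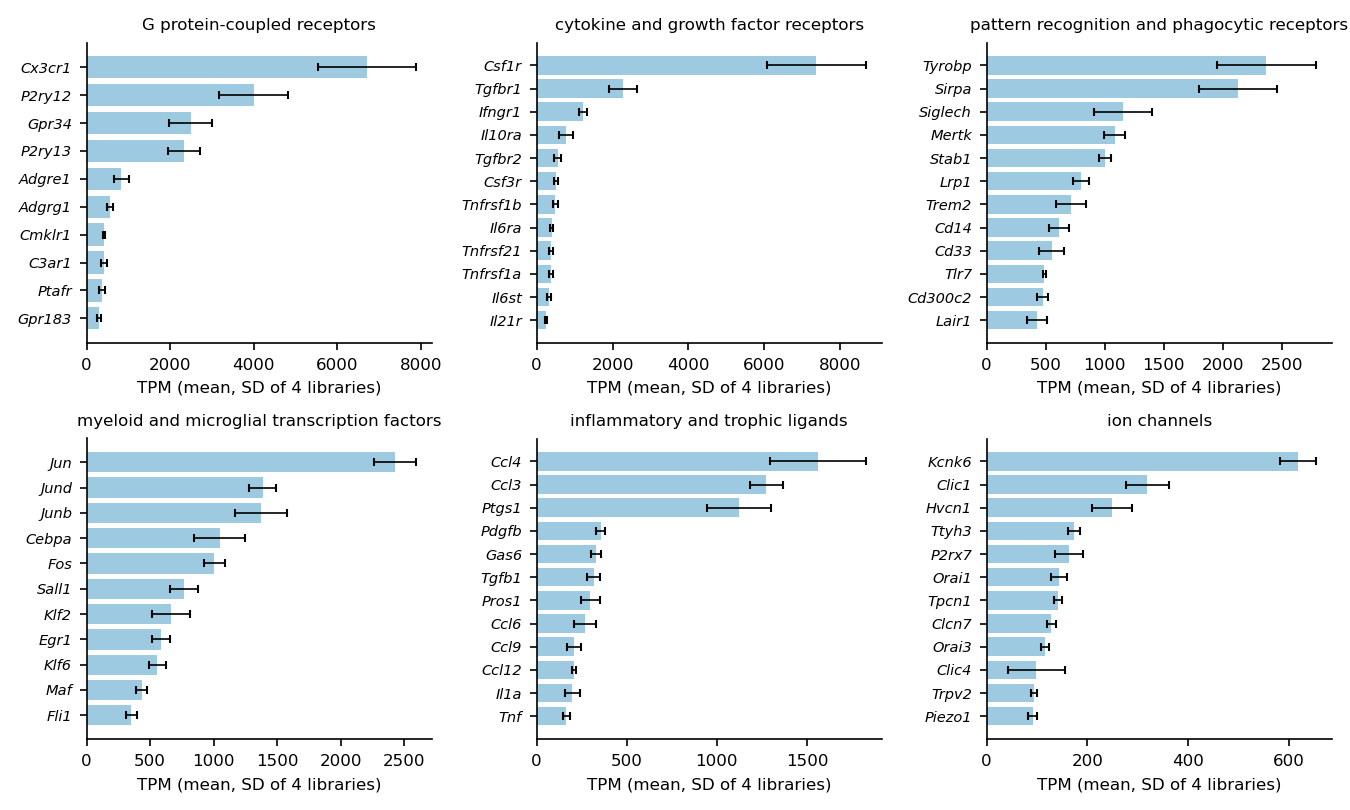
Mean TPM (bars) and SD over 4 libraries (lines) of 10 to 12 of the 12 highest members by TPM in each of 6 lists. In the lists of G protein-coupled and of cytokine receptors 4 and 2 genes, respectively, stood well above the rest, while the transcription factors declined in smaller steps after *Jun*.

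Ion channels were detected in 43 of 48 cases, with a summed level of 4635, 4134, 4389 and 4144 CPM. The sum had a CV of 5.50%, but the members moved both ways. Their median CV was 13.4% over the 40 members at 10 CPM or more, and the ratio of library 2 to library 1 ran from 0.470 to 5.72. The potassium leak channel *Kcnk6* (617 ± 35.5 TPM) was the highest by length, ahead of *Clic1* (319 ± 43.6) and the proton channel *Hvcn1* (249 ± 40.5). *Kcnk13*, the THIK-1 channel of microglial surveillance, stood at 78.0, 49.8, 69.4 and 56.2 CPM. The ATP-gated *P2rx7* stood at 299.5 ± 59.7 CPM and *P2rx4* at 72.6 ± 6.87, the mechanosensitive *Piezo1* at 169 ± 9.89, and the calcium-permeable *Trpm2* and *Trpm7* at 164 ± 11.1 and 133 ± 6.99. *Ttyh3* (298 ± 28.2), the lysosomal *Tpcn1* (252 ± 22.7) and *Clcn3* (147 ± 5.45), and the scramblase *Ano6* (142 ± 0.899) were also above 100 CPM.

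All 36 solute carriers were detected. *Slco2b1* stood at 2281, 1667, 2085 and 1785 CPM. *Slc2a5*, the fructose transporter, stood at 695, 468, 576 and 502 CPM and by length at 695 ± 97.1 TPM, against 362 ± 218 TPM for the glucose transporter *Slc2a1*, which vessels also express. The latter varied as the endothelial markers did, at 159, 564, 194 and 334 CPM. The taurine transporter *Slc6a6* (558.6 ± 39.9 CPM), *Slc12a2* (458 ± 35.3), the amino acid transporters *Slc7a8* (428 ± 72.7) and *Slc38a2* (351 ± 38.1), and the nucleoside transporter of lysosomes, *Slc29a3* (394 ± 59.3), had CVs between 7.15% and 17.0%. The glutamate transporters *Slc1a2* and *Slc1a3*, second and eighth by CPM, are those given above with the astrocyte markers.

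Lysosomal proteins took a large part of the transcriptome. Of 40 cathepsins, cystatins and other lysosomal proteins 39 were detected, 32 of them above 100 CPM, and their summed level was 56669, 37898, 49408 and 39319.9 CPM, or from 3.79% in library 2 to 5.67% in library 1 of the scaled counts. Beyond those named, cathepsin B, *Ctsb*, stood at 2455 ± 449 CPM, the asparaginyl protease legumain, *Lgmn*, at 2297 ± 436, alpha-mannosidase, *Man2b1*, at 1236 ± 349, and progranulin, *Grn*, at 1175 ± 201. *Ctsa* (962 ± 180.1) and *Lamp1* (949.9 ± 157) followed. *Cst7*, cystatin F, stood at 3.68, 2.48, 3.36 and 2.40 CPM and *Ctsk* at 0.658, 1.85, 0.548 and 1.55, at the lower end. The proton pump that acidifies the lysosome was detected in 16 of 17 subunits and summed to 2438, 2077, 2287 and 2258 CPM, a CV of 6.55%. The subunit below detection was *Atp6v0d2* (0.263 ± 0.1004 CPM).

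The promoters of these genes are shown for the letters GTCACGTG, an E-box of the type bound by the MiT/TFE factors, which drive lysosomal genes. The search covered both strands of the RefSeq windows from 250 bases before to 50 bases after each start (GRCm38.p6), and since the core CACGTG reads the same on both strands, hits on opposite strands can overlap. It was found for 8 of the 43 lysosomal genes with a window (18.6%), 26 of 374 among the 500 highest coding genes by TPM (6.95%), 539 of all 15314 coding genes with a window (3.52%), 468 of 9760 detected genes (4.80%), and 71 of 5557 genes below detection (1.28%). 5 stretches are printed, 5′ to 3′ on the strand of the gene and ending before its start, with the motif in capitals.
Ctsd (GRCm38.p6, chr7:142387872-142387971, - strand): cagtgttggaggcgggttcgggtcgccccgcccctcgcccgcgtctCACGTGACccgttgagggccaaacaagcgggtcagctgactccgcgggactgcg
Lgmn (GRCm38.p6, chr12:102439093-102439189, - strand): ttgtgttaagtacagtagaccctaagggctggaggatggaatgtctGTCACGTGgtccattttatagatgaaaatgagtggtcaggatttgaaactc
Ctsa (GRCm38.p6, chr2:164833713-164833772, + strand): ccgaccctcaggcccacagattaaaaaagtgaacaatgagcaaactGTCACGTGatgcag
Lamp1 (GRCm38.p6, chr8:13159087-13159160, + strand): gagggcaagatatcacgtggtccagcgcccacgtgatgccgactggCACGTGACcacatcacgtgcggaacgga
Atp6v0b (GRCm38.p6, chr4:117887330-117887413, - strand): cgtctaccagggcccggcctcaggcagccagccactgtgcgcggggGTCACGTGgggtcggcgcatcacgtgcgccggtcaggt
The motif begins 98, 51, 14, 28 and 38 bases before the start, in that order, on the strand of the gene in *Lgmn*, *Ctsa* and *Atp6v0b* and on the opposite strand in *Ctsd* and *Lamp1*. A match describes these letters and is not a bound site.

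Of complement, the chains of C1q were abundant while several other components of the classical and alternative pathways were under 10 CPM. The 3 chains of C1q, which starts the classical pathway, stood at 1906, 1441, 1704 and 1510.0 CPM (*C1qa*), 3045, 2145, 2659 and 2128 CPM (*C1qb*) and 2667, 2014, 2377 and 2037 CPM (*C1qc*). By length they were 5454 ± 493, 2134 ± 289 and 4255 ± 409 TPM. Of the components after C1q, *C4b* stood at 94.1, 95.1, 97.4 and 95.5 CPM, the steadiest of the list with a CV of 1.44%, while *C3* (8.94, 11.6, 8.56 and 5.44), *C2* (1.20 ± 0.304), *C1ra* (2.85 ± 0.270) and *C1s1* (2.07 ± 1.48) all had means under 10 CPM. Over libraries 1 and 3 alone the mean of *C1s1* was 0.836 CPM. *Cfb* and *Cfd*, of the alternative pathway, had 0 counts. Of the receptors *C5ar1* stood at 88.1, 92.5, 83.0 and 87.0 CPM and *C5ar2* at 122 ± 11.7.

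Transcription factors were compared by length. The AP-1 members *Jun* (2424 ± 164 TPM), *Jund* (1384 ± 102) and *Junb* (1374 ± 205) led, and lower stood the myeloid factor *Cebpa* (1049 ± 201), *Fos* (1004 ± 82.5), and *Sall1* (765 ± 108.3), a zinc finger factor that marks microglia among macrophages. *Klf2* (665 ± 149.5), *Atf3* (593 ± 175), *Egr1* (585 ± 68.1), *Klf6* (555 ± 66.6) and *Maf* (432 ± 46.5) followed. *Jund* and *Junb*, and neighbours from *Klf2* to *Klf6*, lay within 1 SD of each other. Among all factors of the list and of the families given next, *Spi1*, or PU.1, on which the myeloid lineage depends, held place 18 with 279 ± 27.7 TPM and 183, 137, 167 and 143 CPM, *Irf8* place 22 with 258 ± 41.2 TPM, and *Mef2a* and *Mef2c* places 17 and 28.

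By family, detection ran from complete to none. All 9 IRF genes, all 8 SMAD genes, all 10 genes of the NF-κB and NFAT group and all 3 RUNX genes were detected, as were 20 of 22 in the AP-1, ATF and CREB group. The bHLH group, with 31 of 57 (54.4%), lay near the 57.2% of all protein-coding genes. None of 39 HOX genes and none of 9 PAX genes was detected, with summed levels of 2.23 ± 0.803 and 2.76 ± 1.66 CPM. Of 6 GATA genes only *Gata2* (7.41, 29.0, 10.6 and 18.3 CPM) was, and of 14 LHX and DLX genes only 1. *Runx1* (115 ± 7.41 TPM) exceeded *Runx2* (1.21 ± 0.417) and *Runx3* (2.14 ± 0.390). *Olig2* (1.97, 17.8, 4.73 and 7.70 CPM) and *Sox10* (4.06, 24.8, 5.69 and 7.45), factors of the oligodendrocyte lineage, passed the detection level and were highest in library 2.

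The letters GAGGAAGT, the core bound by PU.1 and related ETS factors, were searched in the same windows. They were found for 14 of 85 genes of the lists on CSF1R and TREM2 signalling, Fc receptors and phagocytic receptors (16.5%), 3 of 25 microglial markers, 27 of 374 genes among the 500 highest (7.22%), and 597 of 15314 in all (3.90%). The share was 3.69% of detected and 4.26% of undetected genes. The letters CCGGAAGT, of the wider ETS type, were found in 0 of 85 genes of those lists, 4.01% of the 500 highest, 8.91% of detected and 1.84% of undetected genes. 5 stretches with GAGGAAGT or its complement in capitals are shown, from genes among the 500 highest by TPM.
C1qc (GRCm38.p6, chr4:136893056-136893155, - strand): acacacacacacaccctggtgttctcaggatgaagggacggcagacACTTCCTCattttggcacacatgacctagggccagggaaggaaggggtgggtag
Ptgs1 (GRCm38.p6, chr2:36230356-36230425, + strand): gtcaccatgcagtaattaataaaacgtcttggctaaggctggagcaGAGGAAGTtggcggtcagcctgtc
Inpp5d (GRCm38.p6, chr1:87620246-87620311, + strand): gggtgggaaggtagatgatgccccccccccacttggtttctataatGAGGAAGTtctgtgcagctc
Vav1 (GRCm38.p6, chr17:57279043-57279099, + strand): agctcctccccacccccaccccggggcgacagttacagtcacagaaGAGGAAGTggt
Havcr2 (GRCm38.p6, chr11:46454877-46454930, + strand): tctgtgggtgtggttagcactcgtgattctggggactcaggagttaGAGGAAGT
The motif begins 195 bases before the start in *C1qc*, on the opposite strand, and 24, 20, 11 and 8 bases before it in *Ptgs1*, *Inpp5d*, *Vav1* and *Havcr2*, on the strand of the gene. TATAAA was found in the windows of 8.81% of detected and 19.9% of undetected genes, 13.9% of the 500 highest, 4 of 25 microglial markers and 12.8% in all. No match says only that these letters are absent from the window.

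Immediate early genes and heat shock genes were all detected (44 of 44), with a summed level of 15724, 12683, 15326 and 13781 CPM. They are induced within minutes by many stimuli, including the warm enzymatic dissociation of tissue, whose part here was not tested. *Rhob* stood at 3071, 2162, 2793 and 2464 CPM, *Jun* at 1611, 1287, 1464 and 1406, *Fos* at 444, 462, 479.7 and 380.1 and *Egr1* at 512, 566, 454 and 429. *Btg2* (825 ± 121), *Junb* (611 ± 107), *Zfp36* (471 ± 80.6) and *Dusp1* (434 ± 32.9) were of the same order. The inducible *Hspa1a* (151, 55.3, 138 and 93.0) and *Hspa1b* (279, 92.4, 251 and 174) varied more, and were highest in library 1 and lowest in library 2. As near-identical copies they share reads and their split is uncertain. The constitutive chaperones *Hspa5* (783 ± 41.9) and *Hspa8* (697 ± 53.2) were steadier.

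Of 64 ligands and enzymes of inflammation 48 were detected. *Ptgs1*, the constitutive cyclooxygenase, stood at 1012, 677, 894 and 687 CPM, against 12.4, 7.96, 17.0 and 11.7 for the inducible *Ptgs2*. Per length the chemokines *Ccl4* (1559 ± 266 TPM) and *Ccl3* (1275 ± 91.3) led, followed by *Ptgs1* (1123 ± 179.9), *Pdgfb* (356 ± 25.3), *Gas6* (329 ± 27.5), a bridge to MERTK and AXL, *Tgfb1* (317 ± 35.2), *Pros1* (298 ± 53.3), another such bridge, *Ccl6* (269 ± 59.98), *Ccl9* (209 ± 38.8) and *Ccl12* (207 ± 12.4). The cytokines *Il1a* (143, 96.5, 160.3 and 119 CPM), *Tnf* (52.0, 44.0, 50.4 and 55.9) and *Il1b* (19.9, 14.5, 39.4 and 21.0) were present in all libraries without LPS. *Il6* stood at 6.69, 5.16, 6.10 and 7.96 CPM, *Cxcl10* at 4.50, 3.06, 3.91 and 5.63 and *Nos2* at 0.549, 3.06, 1.16 and 1.04. *Il12a*, *Csf2* and *Ifnb1* had 0 counts. *Il12b* stood at 0.274, 0.0637, 0 and 0.842 CPM with most of its counts in library 4, *Ifng* had 2 counts in library 3 and 1 in library 4, and *Il23a* had 1 count, in library 2. *Il33* (5.76, 31.7, 6.71 and 8.09) and *Cxcl14* (3.29, 29.3, 6.92 and 6.34) were highest in library 2. *Il16* (222 ± 53.6) and the stromal chemokine *Cxcl12* (56.9, 261, 90.2 and 133) were the other members above 100 CPM.

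Interferon-stimulated genes were widespread but low. 41 of 42 were detected, with a median of 11.7 CPM and a sum of 1048, 844, 918 and 947 CPM. *Parp14* (115 ± 25.3 CPM) and *Trim30a* (112 ± 25.3) were the highest, and *Isg15* (2.28 ± 0.484), *Ifit1* (5.64 ± 1.32) and *Rsad2* (5.91 ± 2.23) were under 10 CPM. MHC class I genes were detected in full (17 of 17) and led by beta-2-microglobulin, *B2m* (842, 587, 805 and 615 CPM). The class I heavy chains *H2-D1* (448, 319, 431 and 362) and *H2-K1* (318, 236, 324 and 293) are similar in sequence, so that their split is uncertain. Class II genes were present, with the invariant chain *Cd74* at 218, 236, 239.7 and 206 CPM, *H2-Eb1* at 115 ± 7.11, *H2-Ab1* at 91.0 ± 7.14 and *H2-Aa* at 90.2 ± 11.1. *H2-Ea*, which C57BL/6 mice do not express, had 0 counts.

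Of 30 genes that rise in microglia around plaques or in degeneration 29 were detected here, and several of them are also on the lysosomal list. *Apoe* stood at 440.0, 624, 454 and 585 CPM and *Cd9* at 611, 321, 508 and 411. The median of the list was 93.0 CPM and 14 members were above 100 CPM. Among those below, *Axl* stood at 77.6 ± 12.8 CPM, *Clec7a* at 38.8 ± 11.3, *Itgax* at 24.6 ± 4.02, *Lpl* at 20.4 ± 3.91, *Spp1* at 5.93 ± 0.730, *Lgals3* at 4.63 ± 0.771, *Cst7* at 2.98 ± 0.636 and *Gpnmb* at 1.22 ± 0.371.

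Lipid handling genes were detected in 39 of 42 cases, led after *Lrp1* by the cholesterol exporter *Abca1* (1227 ± 162 CPM), *Plxdc2* (1133 ± 253) and *Abca9* (1123 ± 200.3). The prostaglandin D synthase *Hpgds* stood at 536 ± 92.4 CPM and *Hpgd*, which degrades prostaglandins, at 315 ± 97.7. *Scd2* (325, 1069.9, 382 and 511) and *Scd1* (36.2, 300.3, 63.9 and 72.6), desaturases that myelinating cells also use, were highest in library 2. Of the iron genes the ferritin chains *Fth1* and *Ftl1* stood at 584 ± 136 and 501 ± 105 CPM, the exporter *Slc40a1* at 291 ± 74.4 and the importer *Slc11a1*, of phagosomes, at 279 ± 48.7.

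All 38 redox genes were detected. *Selenop*, which carries selenium, made up 49.4% of their summed level, at 3150.2, 2076, 3086 and 1914 CPM. The subunits of the phagocyte NADPH oxidase were uneven, with *Ncf1* at 617 ± 71.9 CPM, *Cyba* at 107 ± 15.5, the catalytic *Cybb* at 66.4 ± 6.54 and *Ncf4* at 44.1 ± 9.12. The regulators *Nfe2l2* (182 ± 21.7 TPM), which encodes NRF2, and *Keap1* (44.6 ± 3.40) stood above *Park7* (13.7 ± 0.830), which ranked 8230 among coding genes by TPM. NRF2's target *Nqo1* was at 1.92, 6.88, 1.99 and 8.81 CPM.

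Actin and its regulators were detected in full (46 of 46) and summed to 28132, 21696, 26219.8 and 20188 CPM, with *Actb*, *Marcks* (2190.4 ± 444 CPM) and *Tmsb4x* (2012 ± 444) at the top and 38 of 45 members above 10 CPM highest in library 1, against 46.2% of all genes above that level. Of the genes of glucose metabolism *Gapdh* stood at 446, 450.3, 415 and 394 CPM and the hexokinases at 384 ± 77.2 (*Hk2*), 133 ± 19.6 (*Hk3*) and 82.7 ± 17.7 (*Hk1*). The cell cycle list held 23 of 31 detected genes, led by *Ccnd1* (191 ± 25.1 CPM). The markers of division were low, with *Mki67* at 8.56, 5.93, 8.84 and 8.22 CPM, *Top2a* at 8.39, 7.07, 10.1 and 8.55 and *Ccnb1* at 1.26 ± 0.337.

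The ribosomal protein genes, 83 of 86 detected, summed to 9402, 7747, 8815 and 6188 CPM, and 75 of the 78 above 10 CPM were lowest in library 4, against 29.2% of all genes. None was among the 100 highest by CPM and 3 were by TPM, with *Rplp1* at 2239 ± 365 TPM. Many have processed copies elsewhere in the genome that share their reads, so their levels are uncertain. The subunits of oxidative phosphorylation encoded in the nucleus summed to 2633, 3219.5, 2599 and 2846 CPM, and 42 of the 59 above 10 CPM were highest in library 2, against 28.1% of all genes, as were 8 of the 9 mitochondrially encoded genes above that level, with *mt-Rnr2* (80.7, 26.5, 65.5 and 19.6 CPM), a ribosomal RNA, the exception. *Eef1a1* (2298 ± 426) and *Eef2* (1225 ± 182) led the translation factors, and *Qki* (1705 ± 191), *Ddx5* (1015 ± 52.1) and *Son* (941 ± 97.2) the RNA-binding proteins.

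The spread between libraries was measured for the 9368 protein-coding genes with a mean of 10 CPM or more. Their median CV was 12.03%, against 3.80% from counting error alone, and the middle 50% lay between 7.93% and 18.3%. 3589 genes had a CV under 10% and 806 (8.60%) one over 50%. Of the latter, 720 (89.3%) were highest in library 2, 81 in library 4, 4 in library 3 and 1 in library 1, while of all 9368 genes 28.1%, 11.03%, 14.7% and 46.2% were highest in libraries 2, 4, 3 and 1. With libraries 1 and 3 alone, the pair picked for being the most alike, the median CV was 5.50%, which restates that likeness. Without library 2 the number over 50% was 334.

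The genes of highest CV were *Rph3a* (5.38, 64.0, 6.51 and 6.99 CPM), *Pcsk1n* (5.71, 69.8, 6.58 and 9.52) and *Kif5a* (122, 1566, 290.2 and 114), all known from neurons, and then *Bcas1* and *Mobp*, known from oligodendrocytes. The list of neuronal markers did not set library 2 apart in this way, with sums of 39.7, 206, 154 and 196 CPM. *Mbp*, *Plekhb1*, *Kif5c*, *Prr18*, *Dlgap3*, *Ddn*, *Nrsn1*, *Dbndd2*, *Shank1* and *Hpcal4* completed the 15 highest, with CVs from 115% to 129.9%. All 15 were highest in library 2. The genes over 50% that were highest in library 4 were led by *Ttr*, *Enpp2*, the channel *Trpm3* (95.02, 512, 124 and 549 CPM), *Kl* and *Slc22a17* (117, 379, 129.9 and 397). The 4 highest in library 3 were the neuronal genes *Grin2b*, *Ryr2*, *Csmd1* and *Scn2a*, each lowest in library 1, and the 1 gene highest in library 1 was *Mid1* (73.6, 30.4, 41.7 and 20.6 CPM), which lies at the edge of the pseudoautosomal region.

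**Figure D5:**
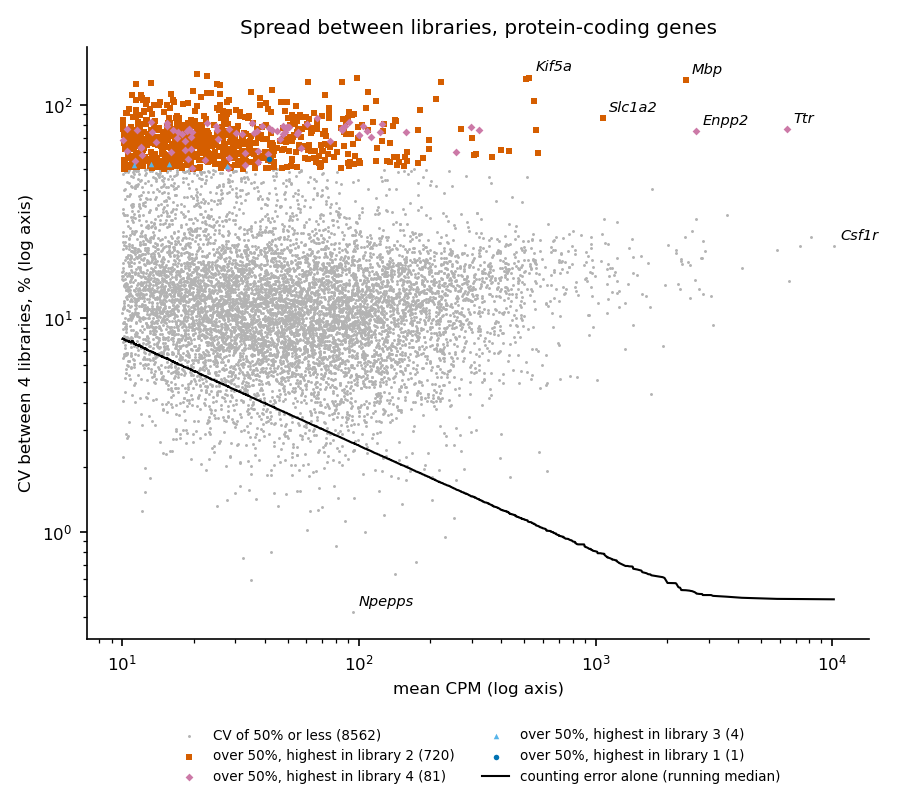
CV between the 4 libraries against mean CPM for 9368 protein-coding genes with a mean of 10 CPM or more (both axes log). Coloured symbols mark the 806 genes over 50% by the library in which they were highest, and the line gives the CV expected from counting error alone.

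At the other end, *Npepps*, a cytosolic aminopeptidase, stood at 94.0, 94.6, 94.3 and 93.7 CPM, a CV of 0.418%. *Prox1*, *Ano6*, *Eif4g3*, *BC031181*, *Ppm1b*, *Zyx*, *Kmt2a*, *Cdkn1b* and *Cdk17* had CVs between 0.591% and 1.02%. All 10 lay under the CV that counting error gives on average at their level, which ranged from 1.65% (*Kmt2a*) to 4.42% (*BC031181*). Of the sums of the lists, that of the oligodendrocyte markers varied most, with a CV of 91.5%, and that of the cell cycle genes least, with 4.91%. The cell cycle members themselves moved both ways. Their median CV was 16.9% over the 16 at 10 CPM or more, and the ratio of library 2 to library 1 ran from 0.653 to 3.71. What the libraries' differing levels of other cell types contributed to the spread of genes that several cell types share was not tested.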

How the data were processed

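The deposited values were whole-number counts per Ensembl gene, which the authors made from 75-base paired reads by trimming, mapping and counting, with cutadapt and STAR 2.7.9a as the tools named, on GRCm39 and the Ensembl 108 annotation. The strand setting of the counting is not given in the sources used here. From the series' table, 19 count columns were mapped to samples by their names, 4 of them wildtype with PBS. The 4 mice were separate animals. Single-cell and human data of the study were not used here.

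CPM were computed from the 4 columns with TMM factors (edgeR 4.0.16, R 4.3.3), which ranged from 0.944 to 1.06. TPM were computed from the counts and the union of each gene's exons in GENCODE M39, which named 56236 of the 56980 identifiers, and the unnamed ones held 0.135% of the counts. Promoter windows came from RefSeq on GRCm38.p6, matched by symbol, for 15314 protein-coding genes. Summaries and plots used Python 3.11.15, pandas 2.3.3 and matplotlib 3.10.9, and the calculation of the spread was tested on simulated data. The CV of a gene is its SD divided by its mean over the 4 libraries, and the CV from counting error is the square root of the mean of the reciprocal counts. No test between groups was made. Depth ranged from 14558136 to 19314132 counts, 3 counts served as the limit that a count of 0 allows, and these limits cover counting error only.

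The genes named were members of fixed lists, the 20 highest by CPM and by TPM, the 10 highest long noncoding and small structural RNAs, the 15 protein-coding genes of highest and the 10 of lowest CV, *Park7* and the Y-linked genes. Some genes that this rule takes in are not reported here, though they count in sums, ranks and numbers of genes. The genes that lead the groups highest in library 3, in library 4 and in library 1 were named after their values were seen. The lists were drawn up, and this group of libraries was singled out for description, with earlier results of these data known. Alternatives were library totals without TMM, DESeq2 1.42.0 size factors, other detection levels and filters, other lengths and denominators, and each library left out. The pair of libraries 1 and 3 alone, the canonical transcript as length and all settings for the count of genes with a CV over 50% were added after the data were seen.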

Additional observations from a re-analysis of the deposited data

Results flagged for a closer look

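Among 399 groups of 4 values (344 genes, 46 lists and 9 summaries of the libraries), 38 (9.52%) had 1 library set apart from the other 3 by more than Dixon's 95% critical value. Chance flags about 1 in 20 such groups. The genes share the same 4 libraries, so the groups are not independent. All 15 genes named for their high CV are among the 38, and without these 15 the number is 23 of 384 (5.99%), of which 4 have counts in 1 library alone.

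Library 2 was the one set apart in most of them, on the high side. The oligodendrocyte markers summed to 11804 CPM there, the astrocyte markers to 4660.1 CPM and the mitochondrially encoded genes to 4057 CPM. Of the myelin and oligodendrocyte genes, *Mbp* stood at 7077 CPM in library 2, *Mobp* at 1501, *Plekhb1* at 648, *Bcas1* at 291, *Prr18* at 178, *Dbndd2* at 73.5 and *Sox10* at 24.8. Of the genes known from neurons, *Kif5a* stood at 1566, *Kif5c* at 246, *Shank1* at 117, *Ddn* at 71.9, *Pcsk1n* at 69.8, *Rph3a* at 64.0, *Hpcal4* at 54.3, *Dlgap3* at 38.2 and *Nrsn1* at 32.9 CPM. The summed list of neuronal markers was not flagged, at 39.7, 206, 154 and 196 CPM.

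Other genes high in library 2 were *Slc1a3* (594 CPM), *Scd1* (300.3), *Lpar1* (64.0), *Il33* (31.7), *Cxcl14* (29.3), *Rsad2* (9.24), *Mir6236* (102), *mt-Co1* (2752) and *mt-Nd6* (28.7). Low in library 2 were the Y-linked genes, which summed to 208 CPM, *Gm2629* at 215 CPM and *Gm55352* at 4.27 CPM.

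Elsewhere, *Oip5os1* was low in library 4 (134.99 CPM), *Ryr2* was low in library 1 (3.35) and *Kmt2a* was high in library 3 (234), by less than 3% of its level. *Cd3e*, *Cd8a*, *Cd79a* and *Il23a* had 1 or 2 counts in 1 library, at 0.0549, 0.127, 0.129 and 0.0637 CPM, and 0 in the others.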

How the results depend on the processing

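The number of detected genes lay between 10522 and 15847, the share of the 100 highest genes between 20.02% and 21.3%, and the genes shared by the rankings by CPM and TPM between 61 and 67 over all settings tried. Leaving out each library in turn gave a median CV from 10.1% to 13.7% and from 334 to 953 genes with a CV over 50%, against 806 in all. The value of 334 belongs to the 3 libraries without library 2, and with libraries 1 and 3 alone the median CV was 5.50%, a setting chosen after the data were seen that has fewer samples. The mitochondrial share lay between 0.193% and 0.286%. No sum of the 46 gene lists moved by over 1.5 times with another scaling or with library 1, 3 or 4 left out. Without library 2 the sum of the oligodendrocyte markers fell from 4984 to 2698 CPM and that of the astrocyte markers from 2209 to 1384. With libraries 1 and 3 alone 7 sums were lower by over 1.5 times, all of them of cells without CD11b, with the choroid plexus markers at 2412 against 6940 CPM. Of the 344 named genes 31 were lower by over 1.5 times without library 2, such as *Bcas1* (33.0 against 97.7 CPM) and *Slc1a2* (614 against 1074), and from 2 to 3, all under 1 CPM, without each of the others. With libraries 1 and 3 alone 58 were lower and 4 higher by that much. No named gene moved that far with another scaling. No paired analysis was possible because no groups are compared. With 14558136 or more counts a library, genes under the detection level are not shown to be absent.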

Other observations

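Other families of transcription factors were detected in part. Their shares, from 44.4% (FOX) to 78.9% (SOX) among those given here, can be read against 57.2% of all protein-coding genes. Of 45 nuclear receptors 29 passed the detection level, with a summed level of 1705 ± 61.6 CPM (SD, n = 4), and the glucocorticoid receptor *Nr3c1* (266 ± 39.5 TPM) was the highest by length. Of 26 KLF and SP genes 16 were detected, at 2239 ± 71.5 CPM in sum. Of 26 ETS genes 18 were detected, at 2394 ± 328 CPM, led by *Fli1* (352 ± 41.8 TPM) ahead of *Spi1*. Of 45 FOX genes 20 were detected, at 1511 ± 90.4 CPM, and of 19 SOX genes 15, at 377 ± 68.3 CPM, led by *Sox4* (244 ± 27.4 TPM). The KLF and SP sum and the bHLH sum (2163 ± 72.3 CPM) varied least for their level. The chromosome with the largest share of the counts was chromosome 2 (8.29%), which carries *Cst3*, *B2m* and *Ctsa*, and the X chromosome held 2.66%.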
